A study of Mus musculus with 30 samples.

Results

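KCL-HO-1i, an inhibitor of the heme-degrading enzyme heme oxygenase-1 (HO-1), was given to tumour-bearing mice together with either 5-fluorouracil (5-FU) or gemcitabine, and the transcriptomes of the tumours under these combinations are compared here with each other. The comparison takes every library that the labels assign to either combination, 5 with 5-FU and 5 with gemcitabine, which is 10 of the 30 bulk RNA sequencing libraries of the study. The other groups of 5 received vehicle, 5-FU, gemcitabine or KCL-HO-1i alone. All mice were FVB/N-Tg(MMTV-PyVT)634Mul/J (labelled WT for genotype), a line in which the MMTV promoter drives polyomavirus middle T antigen in mammary epithelium and mammary tumours arise spontaneously. The labels give 72 hours of treatment by intraperitoneal injection, daily KCL-HO-1i at 25 µmol/kg in both groups, 5-FU at 40 mg/kg every 4 days in one and gemcitabine at 64 mg/kg every 7 days in the other. A shorter treatment and a lower gemcitabine dose are given in the study's text, and the labels are followed here. Both groups share the inhibitor and the transgene and differ in the chemotherapy, its dose and its labelled interval, although 72 hours are shorter than either interval. The comparison thus shows how the tumours differ between these regimens and not what the regimens have in common. No age is labelled, each library is 1 tumour sample, and p-values measure the spread between such samples.

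5-FU is converted in cells to nucleotides that block thymidylate synthase, which makes the thymidine needed for DNA, and that are also built into RNA and DNA. Gemcitabine is a deoxycytidine analogue that is phosphorylated by deoxycytidine kinase, blocks ribonucleotide reductase and stalls DNA polymerases. Both kinds of lesion can activate the p53 pathway and arrest the cell cycle. HO-1 breaks heme down to biliverdin, iron and carbon monoxide, and in this tumour model it is carried by macrophages that sit beside blood vessels.

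The libraries of the combinations were of like depth. Total counts averaged 12644135 ± 976424 (SD, n = 5) in KCL-HO-1i/5-FU and 12222763 ± 1305380 (SD, n = 5) in KCL-HO-1i/gemcitabine (two-sided exact permutation test, p = 0.667, where the smallest possible p is 0.00794). Genes detected (p = 0.198 by the same exact test) and the share of counts from mitochondrially encoded genes (exact p = 0.603) did not differ beyond the spread either. All 10 libraries carried luminal epithelium, the cell type in which the transgene is active, with a summed level over 20 luminal genes of 3776 to 8041 CPM (counts scaled to the library size) in KCL-HO-1i/5-FU and 3840 to 7844 CPM in KCL-HO-1i/gemcitabine. The keratin genes Krt8 and Krt18 and the adhesion gene Epcam led this list, while the hormone receptor gene Pgr and the luminal regulator Foxa1 stayed below 4 CPM in both group means. Library 2 of KCL-HO-1i/gemcitabine stood apart through skeletal muscle RNA (19548 CPM over 30 muscle genes, against 20.2 to 466.7 CPM in the other 9) and white adipocyte RNA (17721 CPM against 262 to 4310 CPM). Library 3 of KCL-HO-1i/5-FU stood apart through Hmox1 and, within its group, through fibroblast and matrix genes (10651 CPM) and blood vessel endothelial genes (813 CPM). Library 2 of KCL-HO-1i/gemcitabine was higher still for these 2 lists (18832 and 1005 CPM). For genes with an unadjusted p under 0.05, a printed difference that moved over 1.5 times without either of these libraries is given with and without it. By the codes in the labels, whose meaning is not stated, these libraries share the mouse code number 70. Libraries 1 and 5 of KCL-HO-1i/5-FU share the number 65, and its libraries 2 and 4 share 74.

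No gene passed an adjusted p of 0.05 in edgeR among 13663 tested, and the smallest adjusted p was 0.118. The share with an unadjusted p under 0.05 was 13.7% (1875 genes), with 1064 genes (7.79%) higher and 811 (5.94%) lower in KCL-HO-1i/gemcitabine than in KCL-HO-1i/5-FU. DESeq2 called 216 genes at an adjusted p of 0.05 (1.58%), 123 higher (0.9%) and 93 lower (0.681%), and limma-voom with sample weights 235 (1.72%), 86 higher (0.629%) and 149 lower (1.09%). The 2 tools had 83 calls in common, 20 higher and 63 lower. Limma-voom had 23% of genes at an unadjusted p under 0.05, 11.9% higher and 11.1% lower. The libraries of one combination lay wholly outside those of the other for 361 genes (2.64%), 191 higher (1.4%) and 170 lower (1.24%). Differences are therefore given below as measured sizes with their spread, and a gene counted below as higher or lower is one with an unadjusted edgeR p under 0.05. Log2 differences are KCL-HO-1i/gemcitabine minus KCL-HO-1i/5-FU throughout, ± the standard error, and their median over all tested genes was 0.02.

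Among genes higher in KCL-HO-1i/gemcitabine without overlap, the one with the smallest p was Mgme1. Mgme1 (chr2:144270904-144281227), a nuclease that trims mitochondrial DNA ends, measured 15.0, 12.5, 10.5, 13.8 and 15.7 CPM in the 5 KCL-HO-1i/5-FU libraries. In the KCL-HO-1i/gemcitabine libraries it measured 20.7, 18.0, 20.7, 19.3 and 21.5 CPM, a log2 difference of 0.57 ± 0.11 (edgeR adjusted p = 0.118, DESeq2 adjusted p = 0.00079, limma-voom adjusted p = 0.0087). Every KCL-HO-1i/gemcitabine tumour exceeded every KCL-HO-1i/5-FU tumour, although the gap between the nearest of them was small. Ptcd2, a mitochondrial RNA-processing protein, ran from 22.3 to 26.2 CPM against 30.0 to 37.1 CPM (log2 difference 0.49 ± 0.11). Rars2, the mitochondrial arginyl-tRNA synthetase, ran from 22.3 to 25.7 against 29.1 to 34.8 CPM (0.43 ± 0.10). Mrps15 and Mrps10, proteins of the small mitochondrial ribosomal subunit, differed by 0.52 ± 0.14 and 0.42 ± 0.12 on the log2 scale.

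Asnsd1, named for its asparagine synthetase domain, measured 44.6, 45.6, 41.1, 43.9 and 47.6 CPM in KCL-HO-1i/5-FU. It measured 67.1, 68.99, 60.6, 63.5 and 64.2 CPM in KCL-HO-1i/gemcitabine (0.54 ± 0.12, edgeR adjusted p = 0.129). Both groups were tight and the gap between them was wider than either. The histone acetyltransferase gene Hat1 ran from 36.0 to 55.0 against 64.2 to 73.6 CPM (0.57 ± 0.16). Edn1, which encodes the vasoconstrictor endothelin-1, ran from 2.71 to 3.76 against 5.37 to 8.97 CPM and showed the largest difference of the 12 (1.10 ± 0.30). The sorting nexin gene Snx5 (0.43 ± 0.11), Ifrd2 (0.73 ± 0.19) and the tyrosine-catabolism gene Gstz1 (1.05 ± 0.28, with 156 CPM in library 2 of KCL-HO-1i/gemcitabine and 48.8 to 77.6 CPM in its other 4, and 0.65 without that library) were also in the set. DESeq2 called all 12 and limma-voom 11, Edn1 being the exception. Measured against the vehicle mean, the KCL-HO-1i/5-FU mean was below it for all 12 genes, while the KCL-HO-1i/gemcitabine mean was above it for 10 and below it for 2.

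**Figure D1:**
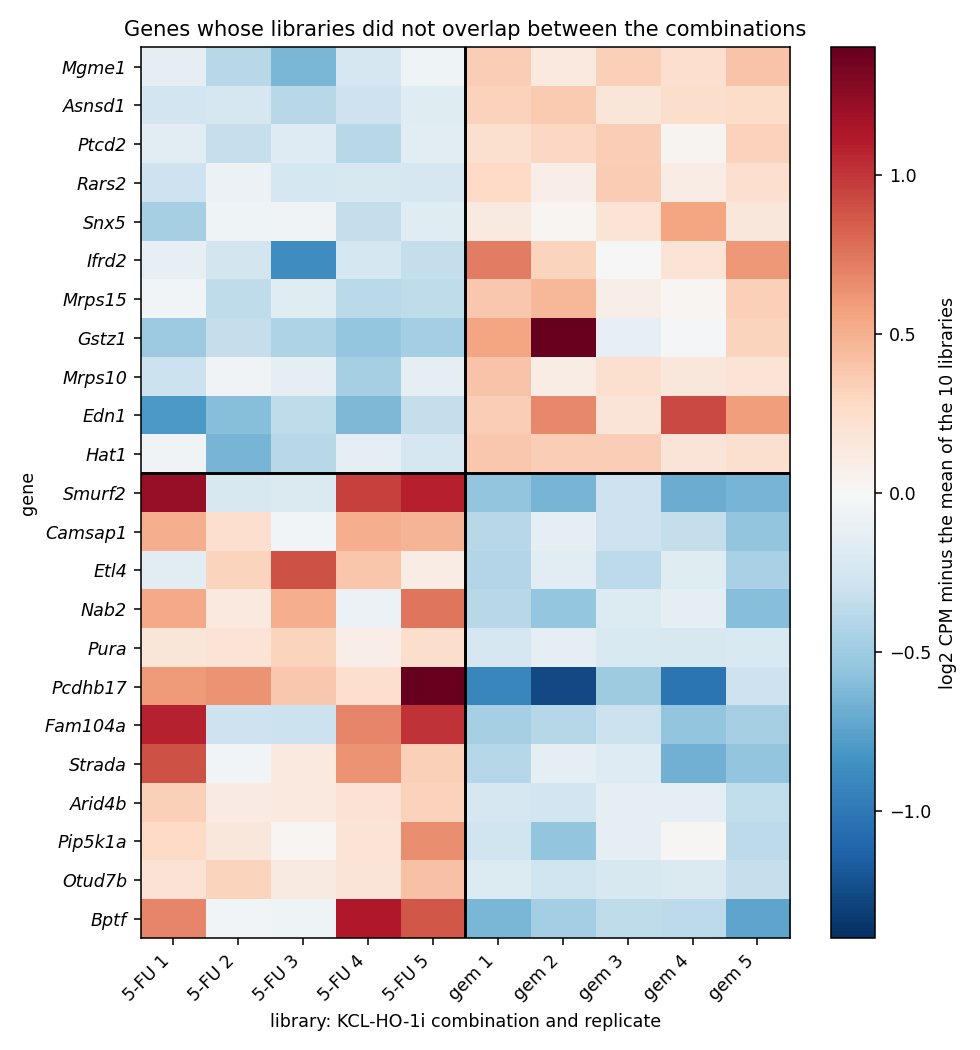
Heat map of 23 genes with non-overlapping libraries and the smallest p (rows, 11 higher above the line and 12 lower below it) in the 10 libraries (columns, replicate 1 to 5 of each combination). Colour is log2 CPM minus the mean of the 10 libraries, so that red is above and blue below that mean. Smurf2, Fam104a and Bptf are darkest red in libraries 1, 4 and 5 of KCL-HO-1i/5-FU, whereas Asnsd1 and Otud7b are even across their groups.

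Of the lower genes, the one with the smallest p was Smurf2 (chr11:106820061-106920747), a ubiquitin ligase that limits TGF-beta signalling. It measured 315, 116, 118, 262 and 288 CPM in KCL-HO-1i/5-FU and 92.6, 86.5, 111, 84.04 and 86.4 CPM in KCL-HO-1i/gemcitabine. The log2 difference was -1.26 ± 0.25 (edgeR adjusted p = 0.118, DESeq2 adjusted p = 0.0008, limma-voom adjusted p = 0.015). Libraries 1, 4 and 5 of KCL-HO-1i/5-FU held 262 CPM or more, while its libraries 2 and 3 lay only just above the highest KCL-HO-1i/gemcitabine library. The same libraries were high for Fam104a (136, 52.6, 52.5, 104 and 130.05 CPM against 43.9 to 52.3 CPM, log2 difference -0.99 ± 0.22) and for Bptf, a chromatin-remodelling factor (211, 128, 126, 286 and 239 CPM against 79.0 to 103 CPM, -1.09 ± 0.25). Strada, a pseudokinase partner of the tumour suppressor kinase LKB1, ran from 16.8 to 32.2 CPM against 10.9 to 15.8 CPM (-0.80 ± 0.18). These 4 genes of the 12 lie on the distal part of chromosome 11.

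The other 8 lower genes lie on other chromosomes. Camsap1 (chr2:25926838-25983562), which binds the minus ends of microtubules, measured 26.8, 22.2, 18.3, 26.9 and 26.3 CPM in KCL-HO-1i/5-FU against 14.4, 17.2, 15.4, 15.0 and 12.9 CPM (-0.69 ± 0.14). Its values too were higher in libraries 1, 4 and 5 of KCL-HO-1i/5-FU than in libraries 2 and 3. Nab2, a corepressor of EGR transcription factors, measured 104, 79.2, 102, 68.4 and 121 CPM against 55.0, 49.6, 63.29, 66.2 and 47.6 CPM (-0.75 ± 0.16). Both groups of Nab2 came close only at library 4. The deubiquitinase gene Otud7b ran from 70.8 to 86.6 CPM against 51.8 to 57.1 CPM (-0.49 ± 0.11), the chromatin-binding gene Arid4b from 71.9 to 83.7 against 52.4 to 60.8 CPM (-0.44 ± 0.10), and the nucleic acid-binding gene Pura from 69.9 to 81.4 against 55.8 to 59.6 CPM (-0.41 ± 0.09). Etl4 (-0.66 ± 0.13) and the lipid kinase gene Pip5k1a (-0.53 ± 0.12) were also in the set. DESeq2 and limma-voom each called all 12 lower genes. The KCL-HO-1i/5-FU mean was above the vehicle mean for all 12, and the KCL-HO-1i/gemcitabine mean was below it for 11.

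Distal chromosome 11 accounted for a distinct share of the lower genes. On chromosome 11, 163 of 1148 tested genes (14.2%) were lower in KCL-HO-1i/gemcitabine at an unadjusted p under 0.05, beside 5.94% of all genes. In windows of 10 Mb (GRCm38) the count was 45 of 155 genes between 100 and 110 Mb, 65 of 116 between 110 and 120 Mb, where the median log2 difference was -0.63, and 10 of 54 beyond 120 Mb. The 10 windows before 100 Mb had medians between -0.04 and 0.10 on the log2 scale. Of the 811 lower genes 120 lay on chromosome 11 beyond 100 Mb, and 691 lay elsewhere.

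The excess came from 3 of the 5 KCL-HO-1i/5-FU tumours. Against the vehicle mean, library 1 was higher by a median log2 difference of 0.90 and 0.77 over the windows from 98 to 102 Mb and by 0.86 to 1.30 over those from 106 to 116 Mb with at least 8 genes. Library 4 was higher by 1.04 and 0.98 from 104 to 108 Mb and by 0.93 to 1.20 from 112 to 118 Mb. Library 5 was higher from 106 Mb to the end of the chromosome, by 0.45 to 1.28 in windows with at least 8 genes. The stretches differed between the 3 tumours, and the windows from 106 to 108 Mb and from 112 to 116 Mb were high in each, at 0.74 or more. Libraries 2 and 3 of KCL-HO-1i/5-FU and all 5 KCL-HO-1i/gemcitabine libraries stayed below 0.5 in every such window from 96 Mb onwards. Across the 30 libraries, 187 windows with at least 20 genes were scored against the median of all libraries. Windows from 96 Mb of chromosome 11 exceeded 0.5 in 5 libraries, the 3 above and 2 from other groups (gemcitabine library 4 with 5 such windows and vehicle library 4 with 1). Windows elsewhere in the genome also exceeded 0.5 in 5 libraries, among them KCL-HO-1i/5-FU library 3 with 3 windows, 5-FU library 2 with 2 and 5-FU library 4 with 1, and in none of KCL-HO-1i/gemcitabine.

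**Figure D2:**
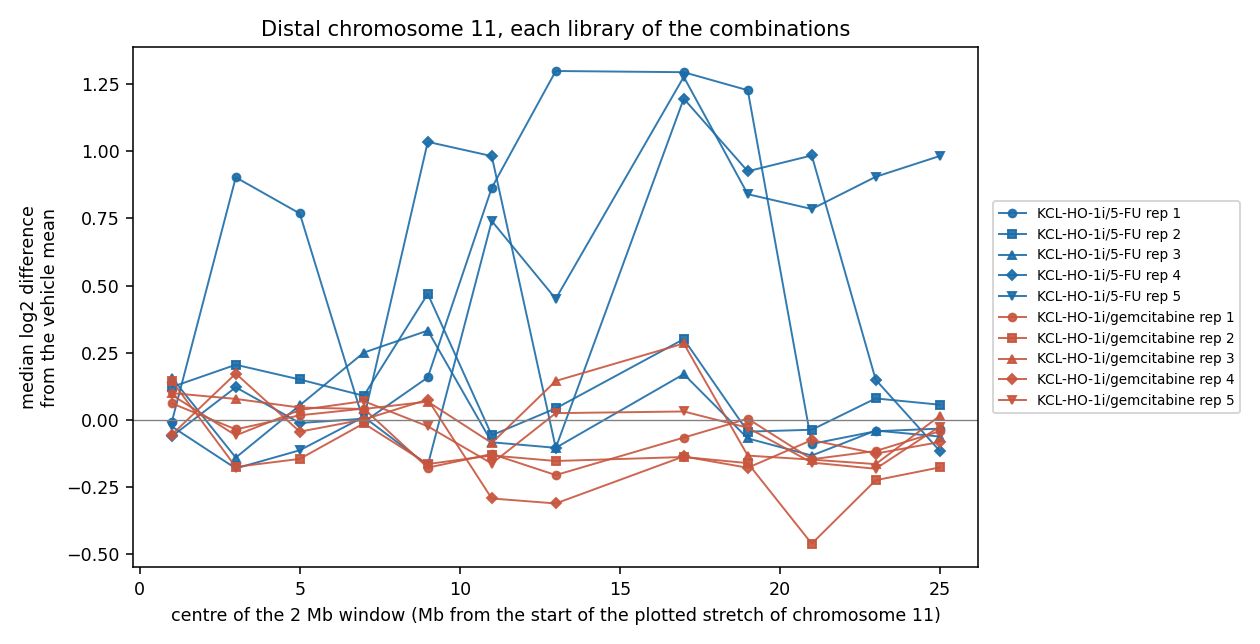
Median log2 difference from the vehicle mean (y axis) of the genes in each 2 Mb window of distal chromosome 11 (x axis, Mb from the start of the plotted stretch, windows with at least 8 genes) for the 10 libraries of the combinations. KCL-HO-1i/5-FU libraries 1, 4 and 5 rise above 0.75 over different stretches, whereas KCL-HO-1i/gemcitabine libraries lie between -0.46 and 0.28.

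Genes of signalling and epithelial polarity sit in these stretches, and the following were chosen after their values were seen. Grb2, the adaptor that links receptor tyrosine kinases to RAS, measured 405, 112, 122, 221 and 225 CPM in KCL-HO-1i/5-FU and 107, 109, 102, 94.3 and 103 CPM in KCL-HO-1i/gemcitabine (-1.07 ± 0.25, edgeR adjusted p = 0.13). Llgl2, a regulator of apical-basal polarity, measured 307, 60.7, 35.2, 182 and 139 CPM against 34.3 to 57.9 CPM (-1.60 ± 0.38). In both genes the excess was in libraries 1, 4 and 5, and library 3 of KCL-HO-1i/5-FU lay within the other group for Llgl2. Erbb2, the receptor tyrosine kinase also called HER2, lies on chromosome 11 as well and measured 241, 89.9, 80.1, 113 and 121 CPM against 65.3, 39.4, 98.2, 116 and 67.4 CPM (-0.74 ± 0.25, limma-voom adjusted p = 0.032). Its high value was that of library 1, the difference was -0.39 without it, and the groups overlapped. Nt5c, a nucleotidase of the pyrimidine pathway on this chromosome, measured 152, 46.9, 65, 68.9 and 121 CPM against 34.2 to 65.8 CPM (-0.86 ± 0.23).

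The direction of the differences also followed transcript length, a pattern sought after the data were seen. The tested genes were divided into quintiles by their longest annotated transcript, from 204 to 1993 bases in the shortest to 5279 to 123179 bases in the longest. The median log2 difference ran from 0.14 through 0.07, 0.02 and -0.03 to -0.14. Of the shortest quintile 13.5% were higher and 2.1% lower in KCL-HO-1i/gemcitabine at an unadjusted p under 0.05, and of the longest quintile 3.24% were higher and 13% lower. The 12 higher genes above had a median transcript of 2290.5 bases and the 12 lower genes one of 5577 bases, beside 3413 bases over all tested genes.

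Each library can be given a value for this, the median relative level of the shortest quintile minus that of the longest. It was 0.11, -0.14, -0.12, -0.45 and -0.02 on the log2 scale in KCL-HO-1i/5-FU and 0.26, -0.03, 0.18, 0.09 and 0.29 in KCL-HO-1i/gemcitabine. The groups overlapped, with the lowest value in library 4 of KCL-HO-1i/5-FU, and their means differed by 0.28, or by 0.20 without that library. Libraries of other groups spread as widely, from -0.35 to 0.22 in vehicle and from -0.29 to 0.48 in gemcitabine. No p is given, since the trend was seen in these libraries first. Its part in the results by gene was measured by adding the length trend of each library to the model, after which 932 genes were higher and 677 lower at an unadjusted p under 0.05. All 12 higher and 12 lower genes kept their direction, for example Smurf2 at -1.18 and Mgme1 at 0.54. Some sizes shrank more, as for Otud7b (-0.49 to -0.32) and Mrps15 (0.52 to 0.37), while Nab2 grew slightly (-0.75 to -0.80). Keeping the direction is a weak check, since these genes were picked by their differences in the same libraries. The study's methods state a minimum RNA integrity for its samples but give no value per library, and the part of RNA quality in the trend was not tested.

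**Figure D3:**
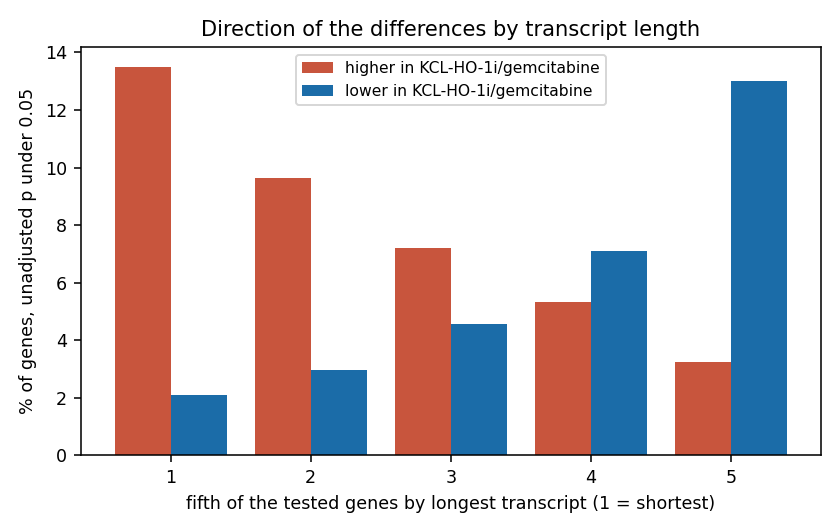
Share of tested genes (y axis, %) with an unadjusted edgeR p under 0.05 that were higher (red) or lower (blue) in KCL-HO-1i/gemcitabine, by quintile of longest transcript (x axis, 1 the shortest). The red bars go down from 13.5% to 3.24% and the blue bars go up from 2.1% to 13%.

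Short transcripts include those of the ribosome, and families chosen after the data were seen followed the trend to different degrees. Of 89 cytosolic ribosomal protein genes 47 were higher and 1 lower, with a median log2 difference of 0.36, and with the length trend in the model 25 were higher and the median was 0.23. Reads of these genes can be shared with processed pseudogenes, so single members are uncertain. Of 78 mitochondrial ribosomal protein genes 28 were higher and 2 lower, 75 had a positive difference, the median was 0.25, and 15 had libraries that did not overlap (background 1.4%). With the length trend in the model 19 were higher and the median was 0.17. Of 37 nuclear genes for subunits of respiratory complex I, the first enzyme of the electron transport chain, 7 were higher and none lower (median 0.27), and with length in the model 1 was higher. Of the 13 mitochondrially encoded subunits none passed an unadjusted p of 0.05 in either direction (median 0.22).

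A gene family with the opposite direction was the protocadherin beta cluster, single-exon genes of cell adhesion molecules that lie side by side on chromosome 18. Of 21 tested members all had a negative difference, 6 were lower at an unadjusted p under 0.05, and the median log2 difference was -1.04 (-1.01 with length in the model). Pcdhb17 measured 17.2, 17.6, 14.8, 13.3 and 50.5 CPM in KCL-HO-1i/5-FU and 6.01, 4.73, 8.01, 5.58 and 9.31 CPM in KCL-HO-1i/gemcitabine (-1.75 ± 0.38, edgeR adjusted p = 0.13). All 5 KCL-HO-1i/5-FU tumours were above all 5 others, and library 5 stood highest. Without that library the log2 difference of Pcdhb17 was -1.22. Pcdhb12 (3.04 to 11.2 against 0.805 to 1.98 CPM) and Pcdhb14 (5.43 to 12.3 against 2.41 to 5.28 CPM) also did not overlap and were chosen after their values were seen. Members of the cluster are alike in sequence and reads may be split among them, so single members are uncertain. Some were near the floor of 3 counts, such as Pcdhb2 at 0.0741 to 0.661 CPM in KCL-HO-1i/gemcitabine. The family median was not tested without single libraries. The 20 tested protocadherin gamma genes of the neighbouring cluster had no member past an unadjusted p of 0.05 and a median of -0.20. On chromosome 18 as a whole 13% of 378 genes were lower, beside 5.94% of all genes. KCL-HO-1i/5-FU library 5 was the highest of the 10 libraries in 8 of its 9 windows of 10 Mb.

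Proliferation genes leaned towards KCL-HO-1i/gemcitabine without passing an adjusted threshold in edgeR. Of 24 mitosis genes all had a positive difference, with a median log2 difference of 0.85. At an unadjusted p under 0.05, 14 of them (58.3%) were higher, beside 7.79% of all genes, and none was lower. Of 24 DNA replication and S phase genes all were positive and 13 passed (54.2%), with a median of 0.50. Of 24 DNA damage checkpoint and recombination repair genes 23 were positive and 6 passed (25%), with a median of 0.24. No member of these lists passed the adjusted threshold in edgeR or DESeq2, and limma-voom called 1 mitosis gene and 1 S phase gene. A bulk sample cannot tell apart fewer cycling cells from less of these transcripts per cell.

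The promoters of 3 mitosis genes with the smallest p are shown because mitosis promoters carry a pair of short elements, the CHR (TTTGAA), bound by the DREAM and MMB complexes, and the CCAAT box. Each window runs from 250 bases before to 50 bases after the annotated start (RefSeq, GRCm38.p6), 5′ to 3′ on the strand of the gene, with TTTGAA and CCAAT, and their reverse complements TTCAAA and ATTGG, in capitals. Bub1 lies at chr2:127831810-127832109 on the minus strand, Ttk at chr9:83834439-83834738 on the plus strand and Ccnb2 at chr9:70421505-70421804 on the minus strand.
Bub1: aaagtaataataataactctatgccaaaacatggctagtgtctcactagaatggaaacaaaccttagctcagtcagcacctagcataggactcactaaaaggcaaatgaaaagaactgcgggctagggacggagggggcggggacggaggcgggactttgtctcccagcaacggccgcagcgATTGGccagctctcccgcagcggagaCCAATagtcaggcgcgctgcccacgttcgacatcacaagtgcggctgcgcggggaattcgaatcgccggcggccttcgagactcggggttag
Ttk: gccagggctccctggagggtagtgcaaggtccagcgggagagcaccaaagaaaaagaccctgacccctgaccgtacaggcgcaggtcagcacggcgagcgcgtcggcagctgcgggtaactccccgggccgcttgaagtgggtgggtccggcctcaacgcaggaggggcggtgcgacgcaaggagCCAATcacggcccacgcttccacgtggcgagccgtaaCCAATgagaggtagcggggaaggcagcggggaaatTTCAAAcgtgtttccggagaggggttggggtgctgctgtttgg
Ccnb2: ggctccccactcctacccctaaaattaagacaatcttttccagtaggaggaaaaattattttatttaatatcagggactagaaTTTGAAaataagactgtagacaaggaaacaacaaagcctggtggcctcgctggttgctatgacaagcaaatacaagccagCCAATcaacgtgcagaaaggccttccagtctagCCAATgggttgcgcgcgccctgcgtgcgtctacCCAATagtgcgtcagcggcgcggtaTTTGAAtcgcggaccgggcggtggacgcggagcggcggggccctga
TTTGAA on either strand was in 17 of the 22 promoters of the mitosis list found in the table (77.3%), beside 17.9% of all 32851 promoters, and CCAAT in 81.8% beside 37.4%. The windows of the S phase list held TTTGAA in 12.5% and CCAAT in 54.2%. Among promoters of tested genes the shares were 12% and 37.1%. Bub1 held 2 CCAAT and no TTTGAA in this window, Ttk held 2 and 1, and Ccnb2 held 3 and 2. A match of letters is a description of the window, and the motifs do not overlap each other. Only these exact letters were searched, so a window without TTTGAA is not shown to lack every form of the CHR.

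Bub1, a kinase of the spindle checkpoint, measured 9.196, 3.78, 6.69, 20.8 and 10.5 CPM in KCL-HO-1i/5-FU and 24.9, 32.0, 21.2, 12.2 and 19.7 CPM in KCL-HO-1i/gemcitabine (1.11 ± 0.38, edgeR adjusted p = 0.229). Ttk, the checkpoint kinase also called MPS1, measured 6.71, 3.41, 5.90, 10.6 and 8.85 CPM against 20.02, 18.6, 13.1, 9.35 and 14.05 CPM (1.08 ± 0.38). Cyclin B2, encoded by Ccnb2, measured 24.9, 8.45, 14.5, 40.8 and 25.4 CPM against 66.9, 56.4, 40.6, 34.1 and 40.9 CPM (1.07 ± 0.38). Library 2 of KCL-HO-1i/5-FU was lowest and its library 4 highest in each, and that library was above library 4 of KCL-HO-1i/gemcitabine, the lowest of its group. Rpa2, a subunit of the single-strand DNA binding complex, was the repair gene without overlap, at 31.1, 18.5, 18.7, 30.9 and 28.0 CPM against 41.9, 46.1, 37.9, 33.7 and 36.5 CPM (0.62 ± 0.23). Among replication genes Gins1 differed by 1.07 ± 0.37, Mcm10 by 0.93 ± 0.33 and the clamp loader subunit Rfc4 by 0.71 ± 0.26 (limma-voom adjusted p = 0.044). Fanci and Rad51ap1, of interstrand crosslink and recombination repair, each differed by 0.79 on the log2 scale. Top2a, the mitotic topoisomerase (named after its values were seen), did not follow the list. It measured 168, 29.1, 46.5, 169.9 and 77.4 CPM against 78.2 to 129 CPM (0.05 ± 0.37), with its high values in libraries 1 and 4. Its window of chromosome 11, from 98 to 100 Mb, was high in KCL-HO-1i/5-FU library 1 (0.90 against the vehicle mean). In library 4 that window stood at 0.12.

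The mean log2 CPM over the mitosis list placed these groups among the others. It was 4.72, 3.27, 3.97, 5.57 and 4.77 in the KCL-HO-1i/5-FU libraries (mean 4.46 ± 0.87, SD, n = 5) and 5.78, 5.79, 5.23, 4.88 and 5.22 in the KCL-HO-1i/gemcitabine libraries (5.38 ± 0.40). Vehicle stood at 5.59 ± 0.27, KCL-HO-1i at 5.56 ± 0.22, 5-FU at 5.18 ± 0.82 and gemcitabine at 5.85 ± 0.74. Thus 4 of the 5 KCL-HO-1i/5-FU libraries were below every KCL-HO-1i/gemcitabine library, and library 4 was within them. The S phase list also had its lowest mean in KCL-HO-1i/5-FU, at 4.32 ± 0.51 and 4.92 ± 0.24 in the combinations beside 4.96 ± 0.61 in 5-FU and 5.07 ± 0.23 in vehicle. The number of mitosis genes past an unadjusted p of 0.05 depended on single libraries. It was 5 without library 2 of KCL-HO-1i/5-FU, 7 without its library 3 or without library 1 or 2 of KCL-HO-1i/gemcitabine, and 21 without library 4 of KCL-HO-1i/5-FU, with a median between 0.65 and 1.16 in these. For the S phase list it ran from 5 to 18 over the same removals.

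**Figure D4:**
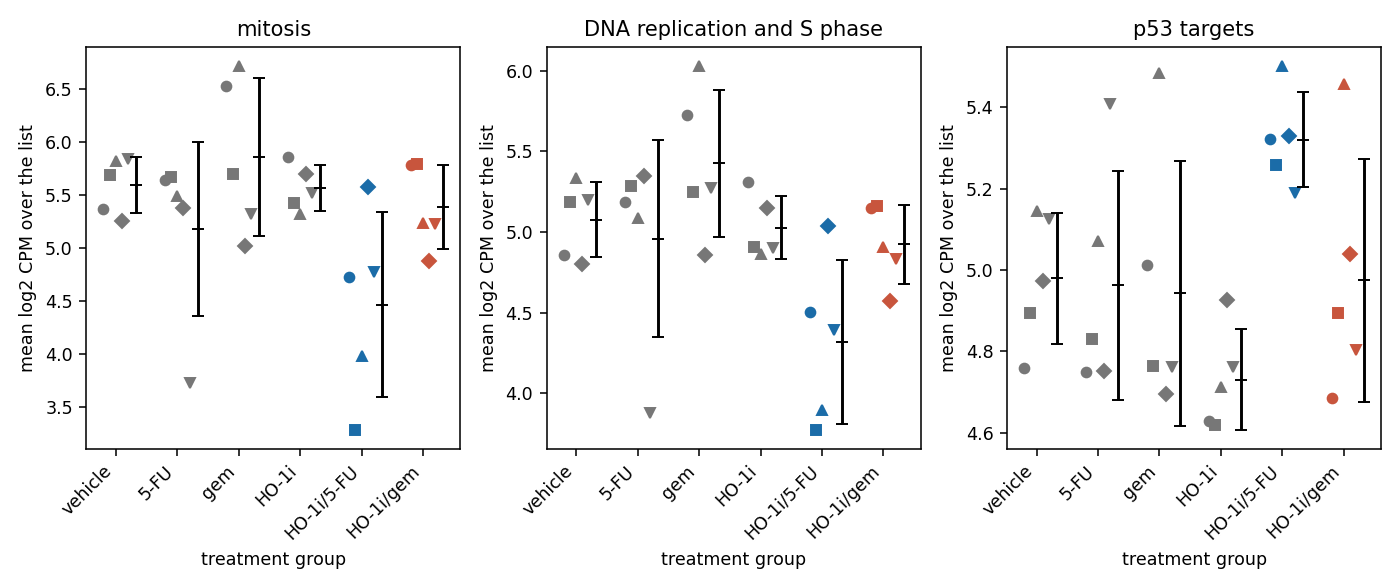
Mean log2 CPM over 24 mitosis genes, 24 DNA replication and S phase genes and 22 p53 target genes (y axes) in all 6 treatment groups (x axes). Each point is 1 library, with the marker shape giving its replicate number, and the bar beside the points is the mean ± SD (n = 5). KCL-HO-1i/5-FU has the lowest mean for both proliferation lists and the highest for p53 targets.

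Targets of p53 went the other way. Of 22 tested members 5 had a positive difference, and the median log2 difference was -0.32. At an unadjusted p under 0.05, 7 were lower in KCL-HO-1i/gemcitabine (31.8%, beside 5.94% of all genes) and none higher. Limma-voom called 6 of them at an adjusted p of 0.05, while edgeR and DESeq2 called none. Cdkn1a (chr17:29090979-29100722), which encodes the cell cycle inhibitor p21, measured 256, 236, 210.3, 219 and 178 CPM in KCL-HO-1i/5-FU. In KCL-HO-1i/gemcitabine it measured 52.8, 54.1, 255, 121 and 73.38 CPM, so that 4 of the 5 libraries were below all of the other group and library 3 was at its top. Without library 3 the log2 difference was -1.56, and with it -0.98 ± 0.44 (edgeR adjusted p = 0.326, limma-voom adjusted p = 0.03). The vehicle mean of Cdkn1a was 104 CPM, that of KCL-HO-1i 52.9 CPM, that of 5-FU 128 CPM and that of gemcitabine 90.9 CPM.

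Other p53 targets overlapped to different degrees. Mdm2, the ubiquitin ligase that degrades p53, measured 77.6, 68.8, 61.6, 68.1 and 76.34 CPM against 51.1, 51.2, 72.21, 60.3 and 51.4 CPM (-0.30 ± 0.11, limma-voom adjusted p = 0.031). Sesn2, a stress-induced inhibitor of mTORC1 signalling, measured 45.4, 46.6, 37.3, 38.5 and 40.0 CPM against 25.3, 26.9, 36.3, 38.0 and 27.7 CPM (-0.43 ± 0.16), so that library 4 was the one inside the KCL-HO-1i/5-FU range. Eda2r, a receptor of the tumour necrosis factor family, was the member without overlap, at 4.90, 6.45, 10.4, 9.63 and 5.09 CPM against 1.26, 4.43, 4.13, 4.45 and 2.77 CPM (-1.10 ± 0.44). Library 3 of KCL-HO-1i/gemcitabine was as high as KCL-HO-1i/5-FU in Cdkn1a and Mdm2, and the list value of that library (5.46) was above 4 of the 5 KCL-HO-1i/5-FU libraries (5.19 to 5.50). The group values were 5.32 ± 0.12 and 4.98 ± 0.30 beside 4.98 ± 0.16 in vehicle. Leaving out 1 library at a time gave between 3 and 9 members lower and none higher, with 3 left without library 1 or 5 of KCL-HO-1i/gemcitabine and 9 without its library 3. With the mouse code of the labels as a covariate none was lower. Only 1 code number occurs in both combinations, and the numbers of KCL-HO-1i/gemcitabine libraries 1 and 4 occur in no other library. That fit therefore left these libraries out of the comparison and is a weak check.

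Genes through which the drugs act were examined next, and both lists had 22.2% of members past an unadjusted p of 0.05 beside 13.7% of all genes. Of 18 tested genes of 5-FU activation, breakdown and targets 4 were higher and none lower (median 0.12). Tyms, the target enzyme thymidylate synthase, measured 19.1, 10.8, 14, 16.8 and 17.6 CPM under KCL-HO-1i/5-FU against 27.2, 23.7, 28.5, 15.1 and 22.0 CPM (0.58 ± 0.24, edgeR adjusted p = 0.298). One KCL-HO-1i/gemcitabine library, number 4, was within the KCL-HO-1i/5-FU range. Dut, which keeps uracil out of DNA, differed by 0.56 ± 0.23, and Umps, of the main activation route, by 0.37 ± 0.16. Dpyd, the enzyme that breaks 5-FU down, ran from 4.93 to 37.7 CPM against 6.03 to 17.4 CPM (-0.39 ± 0.69), a difference within the spread.

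Of 18 tested genes of gemcitabine uptake, activation and targets 3 were higher and 1 lower (median 0.22), the lower one being Nt5c above. The activating kinase gene Dck measured 27.3 to 49.95 CPM against 34.0 to 41.8 CPM (0.00 ± 0.15), and the uptake transporter gene Slc29a1 differed by -0.14 ± 0.26. Rrm2, the inducible subunit of the target ribonucleotide reductase, measured 41.8, 17.4, 19.3, 87.2 and 31.8 CPM against 124, 94.6, 48, 45 and 74.09 CPM (0.97 ± 0.44, edgeR adjusted p = 0.333). As with mitosis genes, library 4 of KCL-HO-1i/5-FU was the one in the range of the other group, and without it the difference was 1.47. Rrm1, the large subunit, differed by 0.49 ± 0.24. The concentrative transporter gene Slc28a2 was at 2.00 and 8.35 CPM in libraries 1 and 2 of KCL-HO-1i/gemcitabine and below 1.5 CPM in the other 8, a log2 difference of 2.43 that was 1.08 without library 2. Of 8 tested ABC efflux transporter genes none passed an unadjusted p of 0.05 (median 0.05).

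Hmox1 (chr8:75093618-75100593), which encodes HO-1, overlapped between the combinations. It measured 189, 63.6, 1198, 222 and 107 CPM in KCL-HO-1i/5-FU and 149, 209, 418, 115 and 120.0 CPM in KCL-HO-1i/gemcitabine, beside vehicle and KCL-HO-1i means of 49.4 and 153 CPM. The log2 difference of -0.81 ± 0.63 (edgeR adjusted p = 0.588) rested on library 3 of KCL-HO-1i/5-FU and was 0.48 without it. Slc40a1, the iron exporter ferroportin, had the same library at 250.4 CPM and the other 9 between 24.3 and 54.2 CPM (-0.92 ± 0.43, and 0.20 without library 3). Tfrc, the transferrin receptor for iron uptake, measured 79.2, 52.9, 34.6, 73.9 and 73.6 CPM against 87.8, 187, 83.6, 67.5 and 122 CPM (0.80 ± 0.34, and 0.51 without library 2 of KCL-HO-1i/gemcitabine). The constitutive isoenzyme gene Hmox2 differed by 0.08 ± 0.11, and Blvra, biliverdin reductase, by 0.29 on the log2 scale. Over the heme and iron list 2 of 20 genes were higher and 1 lower (median 0.11), and this 15% was near the 13.7% of all genes. Of 18 antioxidant targets of NRF2 and BACH1, the factors that also control Hmox1, the glutathione transferase gene Gstm1 was the 1 higher at an unadjusted p under 0.05 (1.00 ± 0.46, or 0.59 without KCL-HO-1i/gemcitabine library 2 and 1.53 without KCL-HO-1i/5-FU library 3), and the median was 0.11.

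Immune genes also overlapped between the combinations. None of 14 tested T cell and cytotoxicity genes (median 0.19), 23 macrophage genes (0.10), 24 chemokine genes (0.13), 14 MHC class I genes (-0.04), 15 MHC class II and dendritic cell genes (0.10), 11 checkpoint genes (-0.04) 10 neutrophil genes (-0.39) or 2 B cell genes (0.79) had an unadjusted p under 0.05. Cd8a, a chain of the CD8 coreceptor, was at 0.754 to 1.76 CPM against 0.496 to 3.17 CPM, and Cd8b1 and Ifng had too few reads to be tested. With 3 counts equal to 0.222 to 0.302 CPM in these libraries and only 14 of 25 T cell genes testable, a difference in these transcripts smaller than their spread was not detectable at this depth. Gzmb, a cytotoxic granule protease, differed by -0.20 ± 0.54. The chemokine genes Cxcl12 (0.13 ± 0.66), Cxcl14 (0.41 ± 0.57) and Ccl21a (1.48 ± 1.5, from 0 to 12.8 CPM) varied within groups by more than their differences.

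Interferon-stimulated genes had 22 of 24 members below zero (median -0.42) with none past an unadjusted p of 0.05. The summed level was 399.7, 498, 1124, 832 and 777 CPM in KCL-HO-1i/5-FU and 803, 364, 726, 444 and 551 CPM in KCL-HO-1i/gemcitabine. Library 3 of the first group was highest, and the groups overlapped. Of 15 genes of perivascular and resident macrophages 2 were higher (median 0.62), and this 13.3% was near the 13.7% of all genes. The mannose receptor gene Mrc1 ran from 2.11 to 72.4 against 7.27 to 111 CPM (0.73 ± 0.85). Lyve1, which marks perivascular macrophages and lymphatic vessels, measured 0 to 1.98 CPM against 5.04, 18.1, 0.248, 0.0754 and 5.64 CPM (2.71 ± 1.28, edgeR adjusted p = 0.351), with its high values in libraries 1, 2 and 5 and a difference of 1.61 without library 2, and it was the 1 higher gene of 6 tested lymphatic genes.

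The lists with the widest median differences were those of skeletal muscle and white adipocytes, and they were carried by 1 to 3 libraries. Of 27 tested skeletal muscle genes all were higher in KCL-HO-1i/gemcitabine at an unadjusted p under 0.05. The summed level was 95.4, 26.5, 27.3, 20.9 and 20.7 CPM in KCL-HO-1i/5-FU and 20.2, 19548, 130.5, 77.9 and 466.7 CPM in KCL-HO-1i/gemcitabine. Without library 2, which held 555 CPM of the fast-fibre gene Actn3, 3 genes passed, and without libraries 2 and 5 none did. Limma-voom, which weights samples by their fit, had no muscle gene past an unadjusted p of 0.05. DESeq2 called 24 of the 27 muscle genes at an adjusted p of 0.05.

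White adipocyte genes were higher for 18 of 22, at a summed level of 630.5, 661, 1158, 449 and 262 CPM against 4310, 17721, 545, 500.0 and 2542 CPM. Libraries 1, 2 and 5 carried the excess, 4 genes passed without library 2, and 2 passed without libraries 2 and 5. Lep, the adipocyte hormone leptin, was at 8.01, 122 and 5.91 CPM in these libraries and below 1 CPM in the other 7. The thermogenic brown fat gene Ucp1 was at 53.2 CPM in library 1 of KCL-HO-1i/gemcitabine and below 0.3 CPM in the other 9, and 5 of 10 tested brown adipocyte genes were higher (median 2.19).

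Of 13 milk protein genes 8 were higher. The casein gene Csn1s1 measured 102, 223, 19.5, 14.7 and 38.8 CPM against 277, 3374, 52.4, 61.3 and 5372 CPM, with libraries 2 and 5 of KCL-HO-1i/gemcitabine far above the rest. Glycam1, a secreted mucin-like protein of lactating epithelium, was at 628 and 140.5 CPM in the same libraries and below 6 CPM in the other 8. Without both libraries no milk gene passed. Of 12 basal and myoepithelial genes 4 were higher and 2 lower. Library 3 of KCL-HO-1i/gemcitabine held the smooth muscle genes Acta2 and Cnn1 at 658 and 112 CPM, and without it none was higher and 3 were lower. Fibroblast and matrix genes (1 of 24 higher, median 0.62) and blood vessel endothelial genes (none of 20, median 0.34) had high levels in library 3 of KCL-HO-1i/5-FU and library 2 of KCL-HO-1i/gemcitabine. Without the first of these 9 fibroblast and 11 endothelial genes were higher, and without the second the medians were -0.36 and -0.38. The part of these cell types in other gene differences was not tested.

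**Figure D5:**
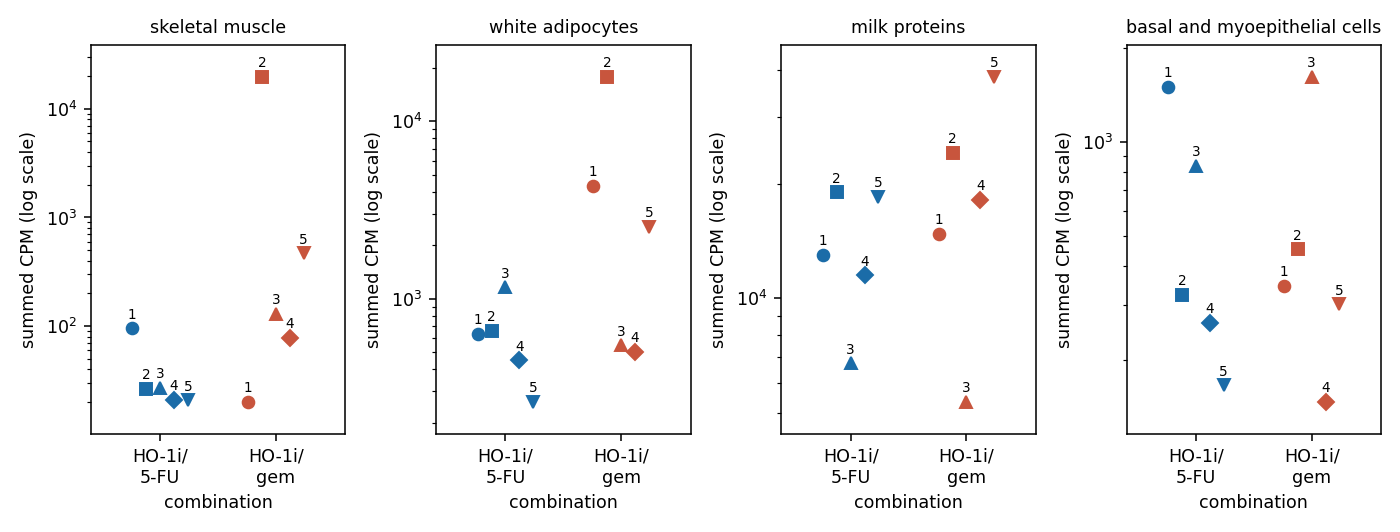
Summed CPM (y axes, log scale) of skeletal muscle, white adipocyte, milk protein and basal or myoepithelial genes in each library of KCL-HO-1i/5-FU (blue) and KCL-HO-1i/gemcitabine (red), with replicate numbers beside the points. Muscle RNA is at 19548 CPM in KCL-HO-1i/gemcitabine library 2 and below 500 CPM in the other 9 libraries.

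Stress genes gave few differences, and these were not all in 1 direction. Among 13 heat shock and metallothionein genes 3 were lower in KCL-HO-1i/gemcitabine and none higher, although the median was 0.27. Hspa1a, the inducible HSP70 chaperone, measured 106, 40.0, 31.2, 42.1 and 64.8 CPM against 28.0, 16.3, 17.3, 32.9 and 20.5 CPM (-1.30 ± 0.35, edgeR adjusted p = 0.13, DESeq2 adjusted p = 0.017, limma-voom adjusted p = 0.03). Only library 3 of KCL-HO-1i/5-FU was below the highest library of the other group. Its near-identical neighbour Hspa1b differed by -1.10 ± 0.36 (-0.71 without KCL-HO-1i/5-FU library 1), and since reads of the pair can be split between them their separate values are uncertain. The cochaperone gene Dnajb1 differed by -0.39 ± 0.16, or by -0.22 without that library. Of 21 genes of the integrated and endoplasmic reticulum stress responses 2 were higher and 1 lower, and this 14.3% was near the 13.7% of all genes. The glutathione-degrading enzyme gene Chac1 (1.26 to 1.81 against 2.19 to 6.34 CPM, 1.06 ± 0.38, or 0.68 without KCL-HO-1i/gemcitabine library 2) was higher without overlap, and the transcription factor gene Cebpb (542 to 752 against 337 to 526 CPM, -0.46 ± 0.16) was lower without overlap. Asparagine synthetase, Asns, differed by 0.59 ± 0.25.

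Among the remaining lists, 2 of 13 genes of ErbB receptors and ligands were lower, Erbb2 above and the ligand gene Hbegf (5.93 to 27.1 against 4.73 to 13.1 CPM, -1.11 ± 0.47), with a median of -0.25. Of 20 luminal genes 2 were lower, the adhesion gene Cdh1 (-0.34 ± 0.16) and the keratin gene Krt7 (-0.59 ± 0.26, and -0.34 without KCL-HO-1i/5-FU library 5). Of 19 cholesterol synthesis genes 1 was higher, Idi1 (0.77 ± 0.31), and none of 20 hypoxia genes or 7 tested epidermal genes passed in either direction. The shares past an unadjusted p of 0.05 were 15.4% of ErbB, 10% of luminal and 5.26% of cholesterol genes, beside 13.7% of all genes.

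Whether the difference between the chemotherapies depended on KCL-HO-1i was tested by setting this comparison against gemcitabine and 5-FU given without it. In edgeR no gene passed an adjusted p of 0.05 (smallest 0.517) and 926 genes (6.78%) had an unadjusted p under 0.05, 364 higher (2.66%) and 562 lower (4.11%). Limma-voom called none at an adjusted p, with 1690 (12.4%) unadjusted, and DESeq2 called 4 (0.0293%), 2 in each direction (0.0146%). Among these 4 were Camsap1, whose log2 difference moved by -0.94 with KCL-HO-1i present (DESeq2 adjusted p = 0.0121), and Smurf2, by -1.59 (adjusted p = 0.0316). The other 2 were the muscle genes Csrp3 and Myo18b, present in library 2 of KCL-HO-1i/gemcitabine at 26.8 and 46.4 CPM and with no reads in KCL-HO-1i/5-FU. Smurf2 and Strada lie in the chromosome 11 stretch that was high in 3 KCL-HO-1i/5-FU libraries, and gemcitabine library 4, of the comparison without KCL-HO-1i, also had high windows on this part of the chromosome. Strada had the next smallest edgeR p of the lower genes (-1.11). The genes with the smallest p on the higher side were the muscle genes Mybpc1, Actn2 and Myh1, all from that library. Of the p53 targets 4 were lower in this test and none higher, and no mitosis or S phase gene passed an unadjusted p of 0.05.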

How the data were processed

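Bulk total RNA from mammary tumours was sequenced from directional libraries. The authors deposited estimated counts per gene for all 30 libraries, and the study's methods name Salmon quantification imported with tximport. The submitters' processing notes list FastQC 0.11.9, STAR 2.7.9a, Salmon 1.9.0 and the build mm10. Estimated counts (38% of values not whole) were rounded before testing. Of 21841 genes, 13663 passed a filter on low counts (filterByExpr, minimum 10), and the rest held 0.0564% of counts.

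All 6 groups were fitted together in edgeR 4.0.16 (R 4.3.3) by the quasi-likelihood test with TMM scaling and Benjamini-Hochberg adjustment. DESeq2 1.42.0, limma 3.58.1 (voom with sample quality weights), other scalings and filters, a replicate block, the mouse code and each library left out in turn served as alternatives. CPM values use TMM library sizes, 3 counts are the floor (counting error only), and errors after ± are standard errors from the fit or SDs over libraries. Replicates were compared over 20 pairs within groups and none agreed within sampling noise (lowest chi-square per degree of freedom 32.1). Same-numbered libraries of the combinations correlated by 0.05 on average (-0.07 to 0.13), so the numbers did not pair them. The highest of all 25 pairs, 0.43, was that of the libraries sharing a mouse code. The scripts were tested on simulated data.

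Genes were named by rule: up to 12 in each direction with the smallest edgeR p among those without overlap and with a mean of at least 1 CPM, 20 genes of the drugs' targets and the tumour's immune cells, up to 3 genes of each of 35 lists, and up to 3 in each direction of the difference from the comparison without KCL-HO-1i. The comparison, genes and lists were chosen with earlier results of these data known. 1 gene that the rule selected is not reported here. Positions and promoters are from mouse GRCm38 annotation. Figures were drawn with matplotlib 3.10.9.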

Additional observations from a re-analysis of the deposited data

Results flagged for a closer look

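Within each combination, a library was marked when its gap to the nearest of the other 4 exceeded 0.71 of the range of the group (Dixon's test), which chance does for about 1 in 20 groups. None of 8 library measures, 4 of 70 list values and 12 of 170 gene values met this. Library 3 of KCL-HO-1i/5-FU was far from its group in 6 of these. Its mean log2 CPM was 6.59 for NRF2 and BACH1 targets and 4.89 for blood vessel endothelium, both high, and 2.50 for ErbB receptors and ligands, which was low. It held 250.4 CPM of Slc40a1, the iron exporter, and low levels of Asns (17.5 CPM) and Ifrd2 (33.4 CPM).

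In KCL-HO-1i/gemcitabine, library 2 was high for the muscle gene Actn2 (100.1 CPM), for Chac1 (6.34 CPM), for Pura (59.6 CPM) and for ABC efflux transporters (mean log2 CPM 4.03). Its library 3 was high for Hbegf (13.1 CPM) and low for Asns (32.2 CPM), and its library 1 held 53.2 CPM of Ucp1. In KCL-HO-1i/5-FU, library 4 stood out for Hmox2 (57.7 CPM), library 5 for Pcdhb17 (50.5 CPM) and library 1 for Mybpc1, where 0.151 CPM stood against no reads in the other 4 and is under the floor of 3 counts.

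In DESeq2 the difference between the chemotherapies changed with KCL-HO-1i for Camsap1 (-0.94 on the log2 scale, DESeq2 adjusted p = 0.0121) and Smurf2 (-1.59, adjusted p = 0.0316). In edgeR and limma-voom neither passed at an adjusted p of 0.05. Smurf2 lies in the chromosome 11 stretch that was high in 3 KCL-HO-1i/5-FU libraries, and gemcitabine library 4 also had high windows on this part of the chromosome.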

How the results depend on the processing

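At an adjusted p of 0.05 the edgeR count of 0 became 216 (123 higher, 93 lower) with DESeq2 and 235 (86 and 149) with limma-voom. Leaving out single libraries gave 0 to 19 genes (0 to 1 higher, 0 to 18 lower), with 19 without KCL-HO-1i/5-FU library 3, 3 without its library 2 and 1 without its library 1. The 3 genes were Cog1, Smurf2 and Fam104a, all on distal chromosome 11. The 19 included these and Cdc42ep4, Llgl2, Slc9a3r1, Grb2 and Bptf from the same part, while Camsap1, Pnp and Pip5k1a lie on other chromosomes. The unadjusted count of 1875 became 3141 (1625 and 1516) with limma-voom, 954 (660 and 294) with the mouse code as covariate and 945 (490 and 455) without KCL-HO-1i/gemcitabine libraries 2 and 5. Without KCL-HO-1i/5-FU libraries 4 and 5 the lower count was 515. Over single libraries it ran from 1378 to 2239 (higher 611 to 1286, lower 615 to 1070), and 611 were higher without KCL-HO-1i/gemcitabine library 2. The replicate block gave 0 adjusted and 1621 unadjusted genes (881 and 740). Only 1 mouse code number occurs in both combinations, and those of KCL-HO-1i/gemcitabine libraries 1 and 4 occur in no other library. The fit with the mouse code therefore leaves these libraries out of the comparison.

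For the difference from the comparison without KCL-HO-1i, DESeq2 gave 4 adjusted genes (2 and 2), limma-voom 1690 unadjusted (746 and 944), no filter 562 higher and the mouse code 221 lower. Single libraries gave 745 to 1405 (higher 278 to 608, lower 421 to 860), with 1405 and 860 without gemcitabine library 5 and 608 without KCL-HO-1i/5-FU library 3. The replicate block gave 790 (302 and 488). Leaving out single libraries moved the difference in genes detected between 96.7 and 262.9, in mitochondrial share between -0.0799 and 0.568 percentage points, in total counts between -771246 and 32602 and in the length trend between 0.198 and 0.338. The signs of the differences in mitochondrial share and total counts turned without KCL-HO-1i/gemcitabine library 2.

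Over 85 genes and 21 alternatives, 72 genes never changed direction. Without KCL-HO-1i/gemcitabine libraries 2 and 5 the log2 differences were Ccl21a -0.015, Cd8a 0.29, Cxcl12 -1.02, Cxcl14 -0.15, Dck 0.044, Gzmb 0.19, Mrc1 -0.66 and Myh1 -0.24. Without KCL-HO-1i/5-FU libraries 4 and 5 they were Cd8a 0.035, Cxcl12 -0.32, Cxcl14 -0.092 and Dck 0.19. With limma-voom they were Dck 0.088, Dpyd 0.12, Slc29a1 0.0074 and Slc40a1 0.054. The replicate block gave Dck 0.0077, the mouse code Ccl21a -7.13 and Hmox2 -0.088, and the length offset Hmox2 -0.016. Over single libraries left out the ranges were Ccl21a -0.43 to 2.91, Cd8a -0.84 to 0.14, Cxcl12 -0.74 to 1.02, Cxcl14 -0.034 to 0.69, Dck -0.10 to 0.094, Dpyd -0.67 to 0.41, Hmox1 -1.28 to 0.48, Hmox2 -0.0084 to 0.13, Mrc1 -0.19 to 1.79 and Slc40a1 -1.15 to 0.20. The length offset and the removal of paired libraries were chosen after seeing the data. The cause of these changes was not tested.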

Other observations

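Immediate-early genes, the first to be transcribed after growth factor or stress signals, were looked at after the data were seen because Nab2 restrains their product EGR1. Egr1 measured 119, 94.0, 121, 151 and 135 CPM in KCL-HO-1i/5-FU and 71.3, 50.3, 59.7, 69.3 and 70.3 CPM in KCL-HO-1i/gemcitabine (log2 difference -0.95 ± 0.26, edgeR adjusted p = 0.13, DESeq2 adjusted p = 0.023, limma-voom adjusted p = 0.051). All KCL-HO-1i/5-FU libraries were above all others, and the vehicle mean was 64.0 CPM. Junb also did not overlap, at 164 to 234 CPM against 115 to 159.7 CPM (-0.49 ± 0.24). Fosb overlapped and its highest value was 22.8 CPM in library 2 of KCL-HO-1i/5-FU (-1.38 ± 0.64). Fos and Jun overlapped as well and did not pass an unadjusted p of 0.05 (-0.52 ± 0.31 and -0.24 ± 0.18). Among feedback inhibitors of the ERK pathway, Spry4 ran from 15.9 to 35.9 CPM against 11.9 to 19.1 CPM (-0.83 ± 0.36) and Dusp6 from 107 to 265 against 73.6 to 194 CPM (-0.67 ± 0.39). Egr1 and Spry4 lie on chromosome 18, where 13% of 378 genes were lower beside 5.94% of all genes.

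Some chromatin and transcription regulators outside chromosome 11 were also lower in KCL-HO-1i/gemcitabine without overlap. Ep300, an acetyltransferase and coactivator of p53 among others, ran from 76.8 to 97.6 CPM against 56.7 to 62.3 CPM (-0.52 ± 0.14). Rest, a repressor of neuronal genes, ran from 43.8 to 54.7 against 32.9 to 42.0 CPM (-0.47 ± 0.11), and Setbp1 from 19.5 to 38.9 against 13.4 to 16.7 CPM (-0.96 ± 0.24). Setbp1 lies on chromosome 18, where 13% of 378 genes were lower beside 5.94% of all genes. Of 24 Kdm and Kmt genes, which encode histone demethylases and methyltransferases, 7 were lower and 1 higher (median -0.22), and 4 were lower with the length trend in the model. Of 348 tested Zfp zinc finger genes 27 were lower and 6 higher (median -0.07), and 14 were lower with length in the model. Over all tested genes 5.94% were lower and 7.79% higher, so the lower share of the Zfp genes was near that of all genes. These genes were chosen after their values were seen.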
